A study of Mus musculus with 16 samples.

Results

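Mouse 3T9 fibroblasts that had received serum for 4 h were compared with cells that had received it for 2 h, by sequencing their small RNA. 3T9 is an immortalised line derived from mouse embryo cells. Both groups had first been deprived of serum for 72 h, which brings such cells to rest, and were then given complete medium with 10% FBS (fetal bovine serum). The comparison rests on 4 of the 16 libraries of a time course over 0, 1, 2, 4, 6, 8, 10 and 12 h, chosen by their labelled time, with 2 libraries at 4 h and 2 at 2 h. The other 12 libraries entered the fit to estimate the spread and serve below as context. Each time was sampled in 2 independent experiments, numbered 1 and 2, and each experiment was sequenced in a run of its own, so experiment and run cannot be told apart. The cells are 1 immortalised line, and no group with a changed gene or an unfed control at the same clock time was analysed here.

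A miRNA hairpin is cut by Dicer into a short duplex of 2 arms, named 5p and 3p. One arm, the guide, is loaded into an Argonaute protein and is protected there, while the other, the passenger, is usually released and degraded. After a burst of transcription both arms are made together, and the guide usually lasts longer. Mature miRNAs also vary at the 3′ end, where bases can be trimmed, retained from the hairpin (templated extension) or added by nucleotidyl transferases (non-templated addition). Below, the arm with fewer reads over all libraries is called the minor arm and its partner the major arm.

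The results turn on a few arms, whose sequences in RefSeq (GRCm38.p6) are shown with the seed, bases 2 to 8, in capitals. Those of miR-155 (155-5p at chr16:84714143-84714165 and 155-3p at chr16:84714182-84714202, plus strand), miR-210 (210-5p at chr7:141221445-141221466 and 210-3p at chr7:141221407-141221428, minus strand) and miR-455 (455-5p at chr4:63256867-63256888 and 455-3p at chr4:63256904-63256924, plus strand) are given for both arms, because at least 1 arm of each hairpin changed.
miR-155-5p: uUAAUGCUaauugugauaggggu
miR-155-3p: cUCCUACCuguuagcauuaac
miR-210-5p: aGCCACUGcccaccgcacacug
miR-210-3p: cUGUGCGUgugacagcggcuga
miR-455-5p: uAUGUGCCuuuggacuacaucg
miR-455-3p: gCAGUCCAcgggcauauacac

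The hairpins of the pairs whose arm ratio changed are shown next with both arms in capitals. In Mir155 (chr16:84714140-84714204, plus strand) the 5p arm takes positions 4 to 26 and the 3p arm positions 43 to 63 of 65 bases. In Mir210 (chr7:141221384-141221493, minus strand) the 5p arm takes positions 28 to 49 and the 3p arm positions 66 to 87 of 110 bases.
Mir155: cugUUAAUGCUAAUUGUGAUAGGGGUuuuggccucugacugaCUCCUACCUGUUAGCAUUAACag
Mir210: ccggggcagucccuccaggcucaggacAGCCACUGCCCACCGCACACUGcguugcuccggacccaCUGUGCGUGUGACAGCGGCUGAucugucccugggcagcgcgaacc

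GENCODE M21 places Mir155 in an exon of its host transcript Mir155hg, a long noncoding RNA, on the same strand. Mir455 lies in an intron of Col27a1, a fibrillar collagen gene, on the same strand. No annotated gene other than the miRNA itself overlaps Mir210.

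Library totals were 7783249 and 7409928 miRNA reads at 4 h, and 7006206 and 6466071 reads at 2 h. Levels are given in CPM, counts divided by a TMM-adjusted library size and put on 1 scale for all libraries, and a count of 0 allows up to 0.385 to 0.464 CPM in these libraries. The 9 fibroblast and mesenchymal marker miRNAs, miR-22-3p, miR-143-3p and miR-21a-5p among them, were all detected and summed to 338800 to 372200 CPM at 4 h and 346650 to 362400 CPM at 2 h. The members named here made up most of each sum. miR-10b-5p of the same list was low, at 2.27 and 3.51 CPM at 4 h, against 3.69 and 4.23 CPM at 2 h. Pluripotent markers summed to 0.260 to 0.379 CPM at 4 h and 0 to 0.284 CPM at 2 h, with miR-292a-3p and miR-294-3p at 0, and muscle markers to 1.90 to 2.60 CPM at 4 h and 1.42 to 1.51 CPM at 2 h. Blood markers summed to 99.1 to 139 CPM at 4 h and 93.3 to 124 CPM at 2 h, with miR-142a-3p at 0. Most of the blood sum was miR-486a-5p, at 96.3 and 135 CPM at 4 h, against 89.8 and 122 CPM at 2 h. Liver and gut markers summed to 647 to 685 CPM at 4 h and 754 to 776 CPM at 2 h, neural markers to 258 to 330 CPM at 4 h and 284 to 333 CPM at 2 h, and epithelial markers to 98.9 to 102 CPM at 4 h and 102 to 113 CPM at 2 h. Most of the liver and gut sum was miR-192-5p, of the neural sum miR-128-3p and of the epithelial sum miR-205-5p. The part of these small differences in marker sums in the results below was not tested.

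Between 2 and 4 h of serum 3 miRNAs rose (0.668%) and 1 fell (0.223%) out of 449 tested, 0.891% in all (edgeR quasi-likelihood test, Benjamini-Hochberg adjusted p under 0.05). The guide miR-155-5p rose and its passenger miR-155-3p fell. miR-210-5p, the passenger of the hypoxia-inducible miR-210, rose with no change called for its guide, and miR-455-3p rose. With the experiment as a block in the fit, which is appropriate because same-numbered libraries deviated together, 10 miRNAs passed, 2.23% of those tested, and these included the 4 above. At an unadjusted p under 0.05 there were 42 (9.35%), 28 higher (6.24%) and 14 lower (3.12%) at 4 h. CPM values are relative, so a change in the amount of a miRNA cannot be told apart from an opposite change in the rest of the library. Each library pools many cells, so a change per cell cannot be told apart from a change in the share of cells that hold the miRNA.

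**Figure D1:**
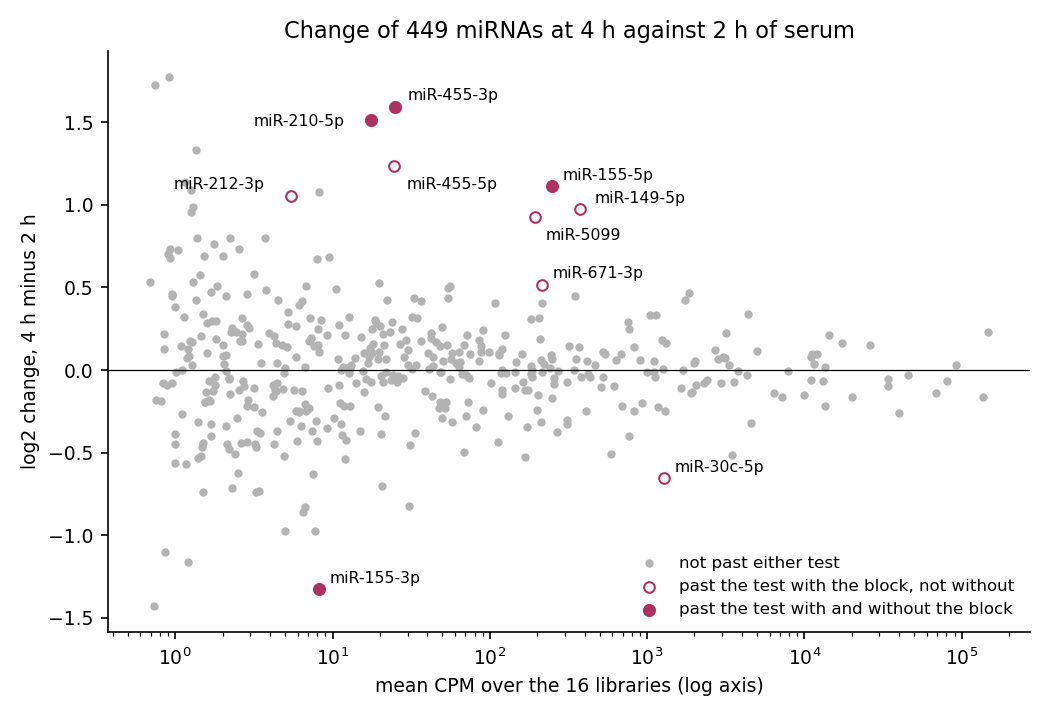
Log2 change at 4 h against 2 h (y axis) of each of the 449 tested miRNAs against its mean CPM over the 16 libraries (x axis, log scale). Filled points passed the edgeR test with and without the replicate block (4 miRNAs), and open points passed with the block and not in the same fit without it (6 miRNAs). The largest changes outside the called miRNAs belong to miRNAs of about 1 CPM, at the left edge.

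miR-155-5p is a regulator of immune and growth responses whose host transcript is known to be induced by mitogens. It stood at 354 and 413 CPM in the 4 h libraries, against 174 and 180 CPM in the 2 h libraries. Both 4 h libraries lay above both 2 h libraries. The mean was 384 ± 41.9 CPM at 4 h and 177 ± 4.27 CPM at 2 h (SD, n = 2 each), a log2 change of 1.12 ± 0.22 (SE; Benjamini-Hochberg adjusted p = 0.0285, edgeR quasi-likelihood), and the log2 difference was 1.02 in experiment 1 and 1.20 in experiment 2. Its values at 4 h were the highest of the course in experiment 1, at 354 CPM against 319 CPM at 6 h and 251 CPM at 12 h. In experiment 2 it stood at 413 CPM at both 4 and 6 h and at 314 CPM at 12 h.

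The passenger miR-155-3p, released when the guide is loaded, moved the other way. It was counted in 81 and 112 reads at 4 h, 10.2 and 14.6 CPM, against 209 and 216 reads at 2 h, 29.6 and 32.6 CPM. Both 4 h libraries lay below both 2 h libraries. The log2 change was -1.33 ± 0.28 (SE; Benjamini-Hochberg adjusted p = 0.0386, edgeR quasi-likelihood), with -1.49 in experiment 1 and -1.14 in experiment 2. Over the course this arm had 0.140 and 0.271 CPM at 0 h, was highest at 2 h, and stood at 4.59 and 6.56 CPM at 6 h. From 6 to 12 h it stayed between 4.58 and 6.67 CPM, above its level at 0 h, which lay under the counting floor.

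**Figure D2:**
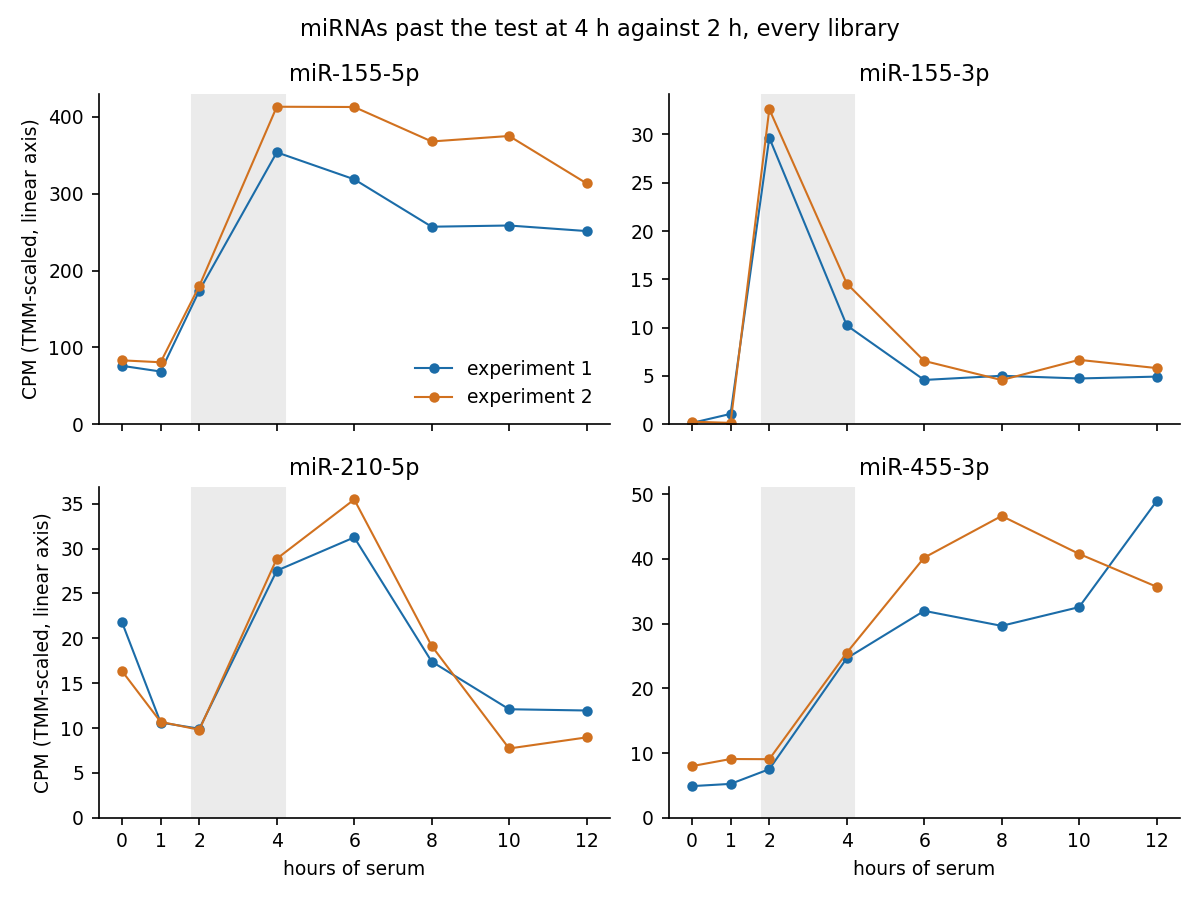
CPM (y axis, linear) over hours of serum (x axis) in every library for the 4 miRNAs that changed between 2 and 4 h, with 1 line for each experiment and the 2 to 4 h interval shaded. miR-155-5p is near its top at 4 h, at 354 and 413 CPM, while miR-155-3p has left its peak of 29.6 and 32.6 CPM at 2 h. miR-210-5p dips at 1 and 2 h and peaks at 6 h, and miR-455-3p stands at 24.6 and 25.5 CPM at 4 h, against 7.52 and 9.06 CPM at 2 h.

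The share of the passenger among all miR-155 reads needs no scaling between libraries. It was 2.81% and 3.41% at 4 h (95% Wilson intervals 2.27% to 3.48% and 2.84% to 4.08%), against 14.6% and 15.3% at 2 h (12.8% to 16.5% and 13.5% to 17.3%). Without molecular identifiers, these intervals and the floor above account for counting error alone. The intervals of the 2 times do not overlap. The log2 ratio of the passenger to the guide differed by -2.45 ± 0.55 at 4 h (SE; adjusted p = 0.0327, limma over 129 hairpins with Benjamini-Hochberg adjustment), and it was -2.55 in experiment 1 and -2.36 in experiment 2. Without 1 of the 4 libraries it lay between -2.60 and -2.31 and did not pass (adjusted p of 0.0696 to 0.303, limma).

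In no hairpin other than miR-155 did the tests call a fall of the passenger and a rise of the guide. The arm ratio was tested in 129 hairpins whose minor arm averaged at least 10 reads per library, and it passed in 2, 1.55% of them, miR-155 and miR-210. The minor arm had a negative and the major arm a positive log2 change in 27 hairpins, against 30 with the opposite pattern, 35 with both arms negative and 37 with both positive. The median of the minor-minus-major difference was 0.05 on the log2 scale, with 57 hairpins negative and 72 positive. In 9 of the 27 hairpins both 4 h libraries of the minor arm lay below both 2 h libraries, beside 22 of all 129 minor arms and 15.1% of all tested miRNAs. The 27 were picked for a negative change of the minor arm, which raises this count by construction. Among these, only in miR-155, miR-125a and let-7d did the major arm also lie above in both.

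**Figure D3:**
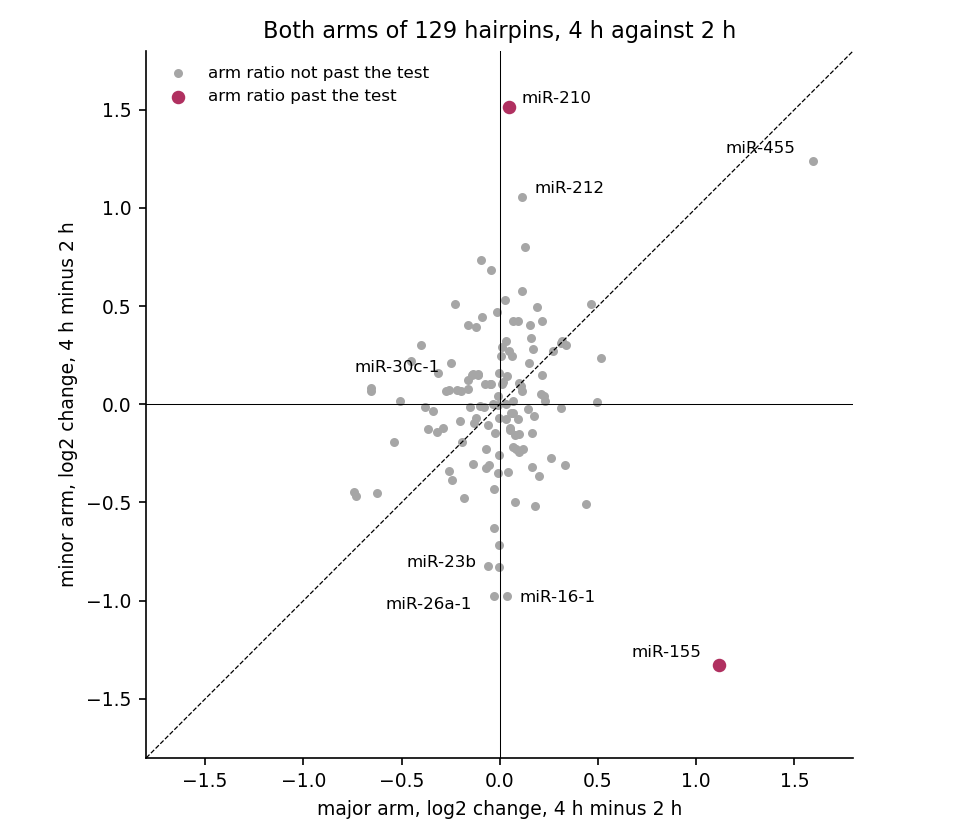
Log2 change at 4 h against 2 h of the minor arm (y axis) and of the major arm (x axis) for 129 hairpins, with equal changes on the dashed line. The 2 hairpins whose arm ratio passed the limma test are filled: miR-155, with the minor arm at -1.33 and the major arm at 1.12, and miR-210, with the minor arm at 1.51 and the major arm at 0.05.

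The hairpins with the next lowest p in this pattern changed less and did not pass. miR-16-1-3p is the passenger of miR-16, a guide known to restrain the cell cycle, and was counted at 3.29 and 5.72 CPM at 4 h, against 8.51 and 9.21 CPM at 2 h. These levels came from 26 and 44 reads at 4 h, and 60 and 61 reads at 2 h. The libraries did not overlap, and the arm-ratio difference was -1.06 ± 0.34 (SE; Benjamini-Hochberg adjusted p = 0.246, limma). The guide miR-16-5p, which is made from 2 loci, stood at 11555 and 11557 CPM at 4 h, against 12280 and 10247 CPM at 2 h. The passenger of the second locus, miR-16-2-3p, stood at 7.33 and 8.32 CPM at 4 h, against 7.52 and 6.64 CPM at 2 h, and its libraries overlapped. Mir16-1 lies in an exon of the noncoding gene Dleu2 and Mir16-2 in an intron of Smc4, a condensin gene, each on its own host's strand. A difference between these loci was not tested. Both passengers can be told apart in reads because they differ in sequence (capitals mark the seed; chr14:61631894-61631915, minus strand, and chr3:69009960-69009981, plus strand).
miR-16-1-3p: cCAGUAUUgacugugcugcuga
miR-16-2-3p: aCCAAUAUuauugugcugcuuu

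Among the other hairpins of this kind, miR-125a-3p stood at 57.0 and 62.2 CPM at 4 h, against 68.5 and 80.0 CPM at 2 h. Its guide miR-125a-5p stood at 17556 and 20309 CPM at 4 h, against 17464 and 16314 CPM at 2 h. The arms of let-7d gave 967 and 1225 CPM at 4 h against 1308 and 1255 CPM at 2 h for let-7d-3p. They gave 3018 and 2999 CPM at 4 h against 2769 and 2766 CPM at 2 h for let-7d-5p, a guide of the differentiation-linked let-7 family. The arm-ratio difference was -0.48 ± 0.24 for miR-125a and -0.36 ± 0.18 for let-7d (SE), each with an adjusted p of 0.474 (limma with Benjamini-Hochberg adjustment). miR-702, miR-30d, miR-501 and miR-467d also had a lower minor arm and a higher major arm, and none passed, either in the arm ratio or in either arm. At an unadjusted p under 0.05, 11 hairpins differed in arm ratio, 5 of them with the minor arm relatively lower at 4 h and 6 with it relatively higher.

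In miR-210, a hairpin known for its induction by hypoxia-inducible factors, a rise was called for the passenger and not for the guide. miR-210-5p stood at 27.5 and 28.9 CPM at 4 h, against 9.93 and 9.81 CPM at 2 h. These levels came from 218 and 222 reads at 4 h, and 70 and 65 reads at 2 h. The libraries of each time lay close together and far from those of the other. The log2 change was 1.51 ± 0.23 (SE; Benjamini-Hochberg adjusted p = 0.00510, edgeR quasi-likelihood), with 1.43 in experiment 1 and 1.51 in experiment 2. The guide miR-210-3p stood at 152 and 122 CPM at 4 h, against 141 and 124 CPM at 2 h, and its libraries overlapped (log2 change 0.05 ± 0.17, SE). Because the guide is far more abundant, a gain as large in CPM would be small on its log2 scale. The test does not exclude such a gain.

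The share of the 5p arm among miR-210 reads was 15.4% and 19.1% at 4 h (95% Wilson intervals 13.6% to 17.3% and 16.9% to 21.5%), against 6.57% and 7.35% at 2 h (5.23% to 8.22% and 5.81% to 9.26%). The log2 arm ratio was higher at 4 h, by 1.46 ± 0.25 (SE; Benjamini-Hochberg adjusted p = 0.00389, limma). It lay between 1.27 and 1.65 with 1 library left out, and passed without the 4 h library of experiment 1 or the 2 h library of experiment 2 only (adjusted p of 0.0115 to 0.0807, limma). The rise followed an earlier fall of the same arm, which had 9.93 and 9.81 CPM at 2 h, against 21.8 and 16.4 CPM at 0 h (log2 change -0.95, adjusted p = 0.0420, Benjamini-Hochberg, edgeR quasi-likelihood). The 2 comparisons share the 2 h libraries. miR-210-5p was highest at 6 h, at 31.2 and 35.5 CPM, and stood at 12.0 and 8.96 CPM at 12 h.

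Both arms of miR-455, a miRNA known from cartilage, were higher at 4 h, and in the fit without the block the 3p arm passed and the 5p arm did not. miR-455-3p stood at 24.6 and 25.5 CPM at 4 h, against 7.52 and 9.06 CPM at 2 h, and the libraries did not overlap. Its log2 change was 1.60 ± 0.31 (SE; Benjamini-Hochberg adjusted p = 0.0285, edgeR quasi-likelihood), with 1.65 in experiment 1 and 1.44 in experiment 2. miR-455-5p stood at 34.0 and 24.3 CPM at 4 h, against 12.3 and 12.4 CPM at 2 h (log2 change 1.24 ± 0.30, SE; adjusted p = 0.0760 without and 0.0340 with the block, the same test). Without the block the 5p arm also passed with no low-count filter (adjusted p = 0.00111) and in a fit on the 2 h and 4 h libraries alone (0.0340, edgeR), and 0.482 was the highest of its alternatives. The arm ratio of miR-455 differed by -0.38 ± 0.41 (SE), within its error. Reads equal to the reference were 5.64% and 8.16% of this arm's reads at 4 h, and 11.3% and 13.3% at 2 h, and counting only these put the change of miR-455-3p at 0.72 with an adjusted p of 0.827, the highest of its alternatives (1.82e-05 to 0.827, edgeR, DESeq2 or limma-voom). The other reads were mostly non-templated additions, which made up 64.1% and 64.8% of its reads at 4 h, against 50.9% and 45.0% at 2 h, a difference not tested because this arm averaged under 200 reads per library.

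Except for that of miR-210-5p, the 4 calls rest on both libraries of both times. Leaving out any of the 4 libraries ended each call, except that miR-210-5p passed without the 4 h library of experiment 1 (adjusted p = 0.0365, range 0.0365 to 0.133 over the libraries left out, edgeR). The directions held in every such fit, with log2 changes of 1.00 to 1.22 for miR-155-5p, -1.60 to -1.09 for miR-155-3p, 1.48 to 1.55 for miR-210-5p and 1.43 to 1.74 for miR-455-3p. Scaling by plain library totals put both miR-155 arms at an adjusted p of 0.0521, and miR-155-5p missed the threshold with a minimum mean of 10 CPM (0.0512) and with reference reads alone (0.0861, log2 change 0.86), over a range of 7.11e-05 to 0.0861 for its other settings (edgeR, DESeq2 or limma-voom).

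The block brought 6 further miRNAs past the test, of which miR-30c-5p was the only one lower at 4 h. miR-30c-5p, a member of the miR-30 family, stood at 1096 and 1067 CPM at 4 h, against 1861 and 1546 CPM at 2 h, with no overlap (log2 change -0.66 ± 0.16, SE; adjusted p = 0.0760 without and 0.00336 with the block, Benjamini-Hochberg, edgeR quasi-likelihood). It also passed without the block in 5 other settings, at an adjusted p of 0.0483 with DESeq2 size factors, 0.00985 with the DESeq2 test, 0.0452 with a minimum mean of 10 CPM, 0.0109 with no low-count filter and 0.00139 with reference reads alone (edgeR unless named), within a range of 0.00139 to 0.0730 over its settings other than leaving out a library. Counting reference reads alone put its log2 change at -1.14. With 1 library left out, its log2 change lay between -0.78 and -0.55. miR-30c-5p had 2232 and 2392 CPM at 0 h and 758 and 613 CPM at 12 h. The libraries of its passengers overlapped. miR-30c-1-3p stood at 28.7 and 22.4 CPM at 4 h, against 26.5 and 21.7 CPM at 2 h, and miR-30c-2-3p at 39.2 and 38.6 CPM at 4 h, against 35.0 and 39.2 CPM at 2 h. The arm ratio of miR-30c-2, which made 3 of 129 (2.33%) pass with the block, differed by 0.72 ± 0.29 (SE; adjusted p = 0.474 without and 0.0496 with the block, limma with Benjamini-Hochberg adjustment), and that of miR-30c-1 by 0.73 ± 0.24 (SE).

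The guide miR-30c-5p comes from Mir30c-1, in an intron of Nfyc (mature arm at chr4:120769584-120769606, minus strand), and from Mir30c-2, in an exon of a noncoding gene (chr1:23291714-23291736, plus strand). It shares its seed, in capitals, with other members of the family, which differ from it further along.
miR-30c-5p: uGUAAACAuccuacacucucagc
miR-30a-5p: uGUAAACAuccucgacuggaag
miR-30e-5p: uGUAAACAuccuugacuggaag
miR-30a-5p, more abundant than miR-30c-5p, stood at 8838 and 8221 CPM at 4 h, against 9721 and 9249 CPM at 2 h (log2 change -0.15 ± 0.11, SE). miR-30e-5p stood at 2597 and 1748 CPM at 4 h, against 2850 and 1745 CPM at 2 h, and its libraries overlapped. miR-30d-5p stood at 11476 and 11479 CPM at 4 h, against 11703 and 10017 CPM at 2 h. miR-30b-5p stood at 576 and 456 CPM at 4 h, against 872 and 593 CPM at 2 h (log2 change -0.51 ± 0.22, SE; adjusted p = 0.490 without and 0.0542 with the block, edgeR). Of the family's 11 tested arms none passed in the fit of all 16 libraries without the block, miR-30c-5p passed with it and in the settings named above, and the median log2 change was -0.01, beside 0.01 over all 449.

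The other 5 that the block brought past the test were higher at 4 h. Besides miR-455-5p these were miR-212-3p, miR-5099, miR-149-5p and miR-671-3p. miR-212-3p, an arm of a hairpin clustered with miR-132 and known as a target of the transcription factor CREB, stood at 8.34 and 7.80 CPM at 4 h, against 3.97 and 3.77 CPM at 2 h (log2 change 1.06 ± 0.25, SE; adjusted p = 0.0760 without and 0.0186 with the block, edgeR). It was counted in 66 and 60 reads at 4 h, and 28 and 25 reads at 2 h. Over its settings other than leaving out a library, the adjusted p reached 0.549 (edgeR, DESeq2 or limma-voom). Its partner miR-212-5p stood at 9.10 and 15.0 CPM at 4 h, against 10.8 and 11.5 CPM at 2 h, and overlapped. The neighbouring miR-132-3p stood at 38.2 and 43.6 CPM at 4 h, against 29.5 and 31.5 CPM at 2 h, without overlap and without passing in either fit. Mir212 and Mir132 lie within an intron of the same noncoding gene, 1700016P03Rik, on its strand.

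miR-5099 stood at 276 and 206 CPM at 4 h, against 134 and 119 CPM at 2 h (log2 change 0.93 ± 0.26, SE; adjusted p = 0.144 without and 0.00336 with the block, and 0.00370 without the block when no low-count filter was used, with 0.637 the highest of its alternatives, edgeR, DESeq2 or limma-voom). Of its reads 79.0% and 79.7% at 4 h, and 77.7% and 81.9% at 2 h, were counted as extended at the 5′ end, and under 1% equalled the reference. miR-149-5p, whose hairpin lies within Gpc1, a heparan sulphate proteoglycan gene, in an intron, stood at 365 and 464 CPM at 4 h, against 223 and 198 CPM at 2 h (log2 change 0.98 ± 0.37, SE; adjusted p = 0.397 without and 0.0231 with the block, edgeR). It also passed without the block when no low-count filter was used (adjusted p = 0.000498) and in a fit on the 2 h and 4 h libraries alone (0.0340, edgeR). It did not pass with DESeq2 size factors, the DESeq2 test, limma-voom, library totals, a minimum mean of 10 CPM or reference reads alone. miR-671-3p stood at 223 and 228 CPM at 4 h, against 166 and 150 CPM at 2 h (log2 change 0.52 ± 0.15, SE; adjusted p = 0.158 without and 0.0246 with the block, edgeR). Its adjusted p reached 0.848 over the settings other than leaving out a library (edgeR, DESeq2 or limma-voom). Mir671 lies in an exon of Chpf2 on the same strand and overlaps an exon of Smarcd3 on the opposite strand, and the reads' strand handling is not given in the sources used here.

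**Figure D4:**
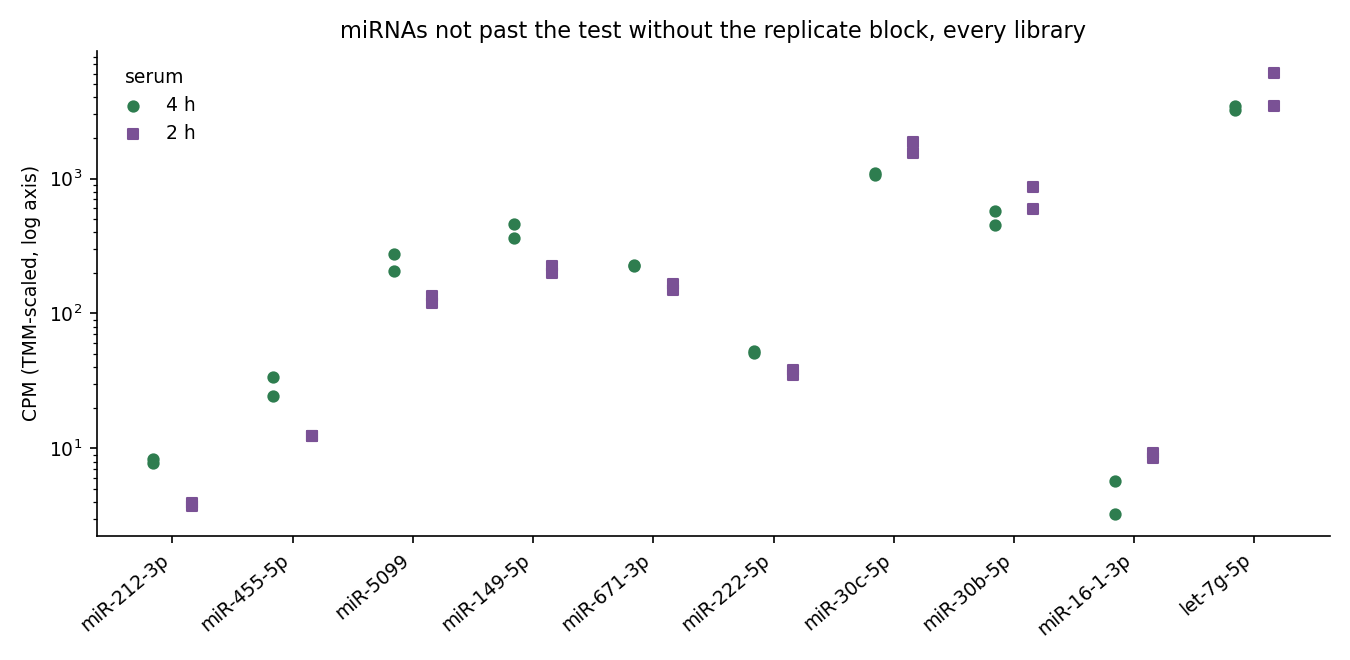
CPM (y axis, log scale) in each library at 4 h (circles, left) and 2 h (squares, right) of 10 miRNAs that did not pass in the fit of all 16 libraries without the replicate block. For miR-212-3p, miR-455-5p, miR-5099, miR-149-5p, miR-671-3p and miR-222-5p both 4 h libraries are above both 2 h libraries, and for the other 4 they are below. One 2 h library of let-7g-5p stands at 6075 CPM, apart from the other 3.

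Other miRNAs whose libraries did not overlap failed both fits. Both 4 h libraries lay above both 2 h libraries in 93 miRNAs (20.7%) and below them in 68 (15.1%). miR-222-5p and miR-221-5p are passengers of the guides that target the cell cycle inhibitor p27. miR-222-5p stood at 50.8 and 53.1 CPM at 4 h, against 38.0 and 34.9 CPM at 2 h (adjusted p = 0.262 without and 0.0605 with the block, edgeR), and miR-221-5p at 321 and 357 CPM at 4 h, against 263 and 235 CPM at 2 h. miR-9-5p, best known from neural cells, stood at 5.81 and 5.20 CPM at 4 h, against 9.65 and 10.4 CPM at 2 h, and miR-598-3p at 19.0 and 14.8 CPM at 4 h, against 26.1 and 28.8 CPM at 2 h (each with an adjusted p of 0.0542 with the block, edgeR).

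1 library decided the value of let-7g-5p. It stood at 3219 and 3431 CPM at 4 h, against 3441 and 6075 CPM at 2 h, and the high value came from experiment 2. Its log2 difference was -0.10 in experiment 1 and -0.82 in experiment 2, and it passed the test only when the 2 h library of experiment 1 was left out (log2 change -0.91, adjusted p = 0.00741, edgeR; -0.05 without the 2 h library of experiment 2) or when no low-count filter was used. let-7a-1-3p, a passenger with the same sequence as let-7c-2-3p so that its origin is uncertain, stood at 20.1 and 23.3 CPM at 4 h, against 27.1 and 49.7 CPM at 2 h. Here too the 2 h library of experiment 2 was the highest, and the log2 difference was -0.42 in experiment 1 and -1.08 in experiment 2. Of 20 tested let-7 arms, none passed, 9 had both 4 h libraries below both 2 h libraries (beside 15.1% of all tested), and the median log2 change was -0.13 (-0.10 within experiment 1 and -0.19 within experiment 2).

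A further question was which changes against resting cells were called at 4 h and not at 2 h. Against 0 h, 34 miRNAs passed at 4 h (7.57%) and 11 at 2 h (2.45%), in comparisons that share the 0 h libraries. The 24 that passed at 4 h and not at 2 h comprised 14 higher and 10 lower than at 0 h, and all 24 had a 4 h minus 2 h change of the same sign. Choosing them by a call at 4 h and none at 2 h nearly fixes that sign, since the same libraries enter, and nothing is read from it. The direct test of that change was passed by 1 of the 24, miR-455-3p (beside 0.891% of all tested), and by 6 with the block (beside 2.23%), and the same choice raises these counts. A pass in the direct test shows a further change between 2 and 4 h. For none of the 24 do the data separate a change that began after 2 h from one already under way.

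Among these 24, miR-455-3p had 4.90 and 7.98 CPM at 0 h, and its log2 change was 0.36 at 2 h and 1.96 at 4 h, both against 0 h. miR-212-3p, at 1.96 and 2.98 CPM at 0 h, gave 0.64 at 2 h and 1.70 at 4 h on the same scale. miR-5099 gave 0.52 and 1.44, miR-455-5p 0.56 and 1.79, and miR-149-5p 0.76 and 1.74, each first at 2 h and then at 4 h. On the lower side miR-30c-5p gave -0.44 at 2 h and -1.10 at 4 h, and let-7a-1-3p gave -0.23 and -1.05. miR-125b-1-3p, a passenger of the miR-125b guide, stood at 1605 and 1257 CPM at 4 h, against 1021 and 1110 CPM at 2 h, and passed against 0 h at 4 h and not at 2 h (log2 change 0.84 at 4 h, adjusted p = 0.00196, edgeR), while its 4 h minus 2 h change did not pass.

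The families showed few calls. Of 15 tested arms of the growth-factor-induced list 1 rose and 1 fell without the block, both from miR-155, with 8 above and 1 below without overlap (beside 20.7% above and 15.1% below of all tested) and a median log2 change of 0.11. With the block 2 rose and 1 fell (beside 2.23% of all tested in both directions). miR-22-3p, by its mean over the 16 libraries the most abundant of this list and of all miRNAs tested, stood at 147960 and 153750 CPM at 4 h, against 135770 and 121270 CPM at 2 h. In the 2 h libraries miR-143-3p was higher, at 141470 and 135010 CPM. In miR-17-92 and its paralogs, clusters induced by Myc, none of 16 passed, 7 were above and none below without overlap (beside the same 20.7% and 15.1%), and the median was 0.13. None passed among 5 miR-29 arms (median 0.27), 5 miR-26 arms (-0.08), 11 arms of the miR-23/27/24 clusters (-0.07) or 11 arms of the miR-322 and miR-503 cluster (-0.13). These medians stand beside 0.01 over all tested miRNAs.

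The 3′ ends were tested in 200 miRNAs with a mean of at least 200 reads per library, as the log2 ratio of 1 class of reads to the rest. Non-templated 3′ additions changed in 3 (1.5%), trimmed reads in 1 (0.5%) and templated extensions in none (0%, limma with Benjamini-Hochberg adjustment). With the block these counts were 7 (3.5%), 2 (1%) and 2 (1%). Added bases of miR-191-5p made up 9.72% and 10.7% of its reads at 4 h, against 7.43% and 7.75% at 2 h (log2 ratio 0.47 ± 0.08, SE; adjusted p = 0.0203, limma). Most of these were adenines, in 7288 and 8591 reads at 4 h and 4734 and 4532 reads at 2 h. The hairpin continues with uug after this arm, so an added adenine is told apart from the hairpin's own base.

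Added bases of miR-30b-5p, whose level is given above, made up 9.43% and 12.1% of its reads at 4 h, against 5.55% and 6.08% at 2 h (log2 ratio 0.95 ± 0.19, SE; adjusted p = 0.0203, limma). The share had been 3.24% and 2.80% at 0 h. miR-671-3p went the other way, with 6.51% and 6.16% at 4 h, against 10.1% and 10.4% at 2 h (log2 ratio -0.76 ± 0.14, SE; adjusted p = 0.0203, limma). The share of added bases fell in miR-671-3p, which stood higher at 4 h, and rose in miR-30b-5p, which stood lower. It also rose in miR-191-5p, which was not lower, at 11970 and 12969 CPM at 4 h, against 11892 and 11454 CPM at 2 h. Reads of miR-671-3p with added bases numbered 115 and 108 at 4 h, against 118 and 103 at 2 h. All its reads numbered 1766 and 1752 at 4 h, against 1167 and 991 at 2 h. miR-21a-5p, an abundant growth-linked miRNA, passed only with the block, at 7.29% and 8.42% at 4 h, against 4.99% and 5.31% at 2 h (adjusted p = 0.272 without and 0.000751 with the block, limma).

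The share of trimmed reads fell in miR-29a-3p, a guide known to target collagen mRNAs. They made up 34.1% and 34.0% of its reads at 4 h, against 39.4% and 40.1% at 2 h (log2 ratio -0.35 ± 0.05, SE; adjusted p = 0.00718, limma). The libraries of each time lay within 1 percentage point. The number of trimmed reads did not fall, at 11509 and 11758 at 4 h, against 9929 and 8921 at 2 h, before scaling to library size. The share was 42.0% and 41.6% at 0 h and 26.7% and 26.2% at 12 h. Over the same interval the level of miR-29a-3p differed by 0.34 on the log2 scale, higher at 4 h and not past the test. miR-149-5p had 29.4% trimmed reads in each 4 h library, against 42.8% and 44.7% at 2 h (adjusted p = 0.0557 without and 0.0508 with the block, limma), the second lowest p of this class.

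In miR-155-5p no class of 3′ end passed without the block, and the share of trimmed reads passed with it. Its trimmed reads numbered 170 and 139 at 4 h, against 152 and 100 at 2 h. All its reads numbered 2801 and 3177 at 4 h, against 1227 and 1193 at 2 h. Trimmed reads made up 6.07% and 4.38% at 4 h, against 12.4% and 8.38% at 2 h (log2 ratio -1.07 ± 0.29, SE; adjusted p = 0.174 without and 0.00362 with the block, limma). Templated extensions made up 71.2% and 75.9% at 4 h, against 66.9% and 68.5% at 2 h, without passing in either fit. At 0 h they had made up 21.9% and 24.2%, and at 12 h they made up 41.4% and 42.3%. The hairpin continues with uuu after this arm, as its sequence above shows, so a uridine added to the mature end would be counted as templated. Templated extensions also made up most reads of the passenger miR-155-3p, 59.3% and 69.6% at 4 h and 72.2% and 70.4% at 2 h.

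**Figure D5:**
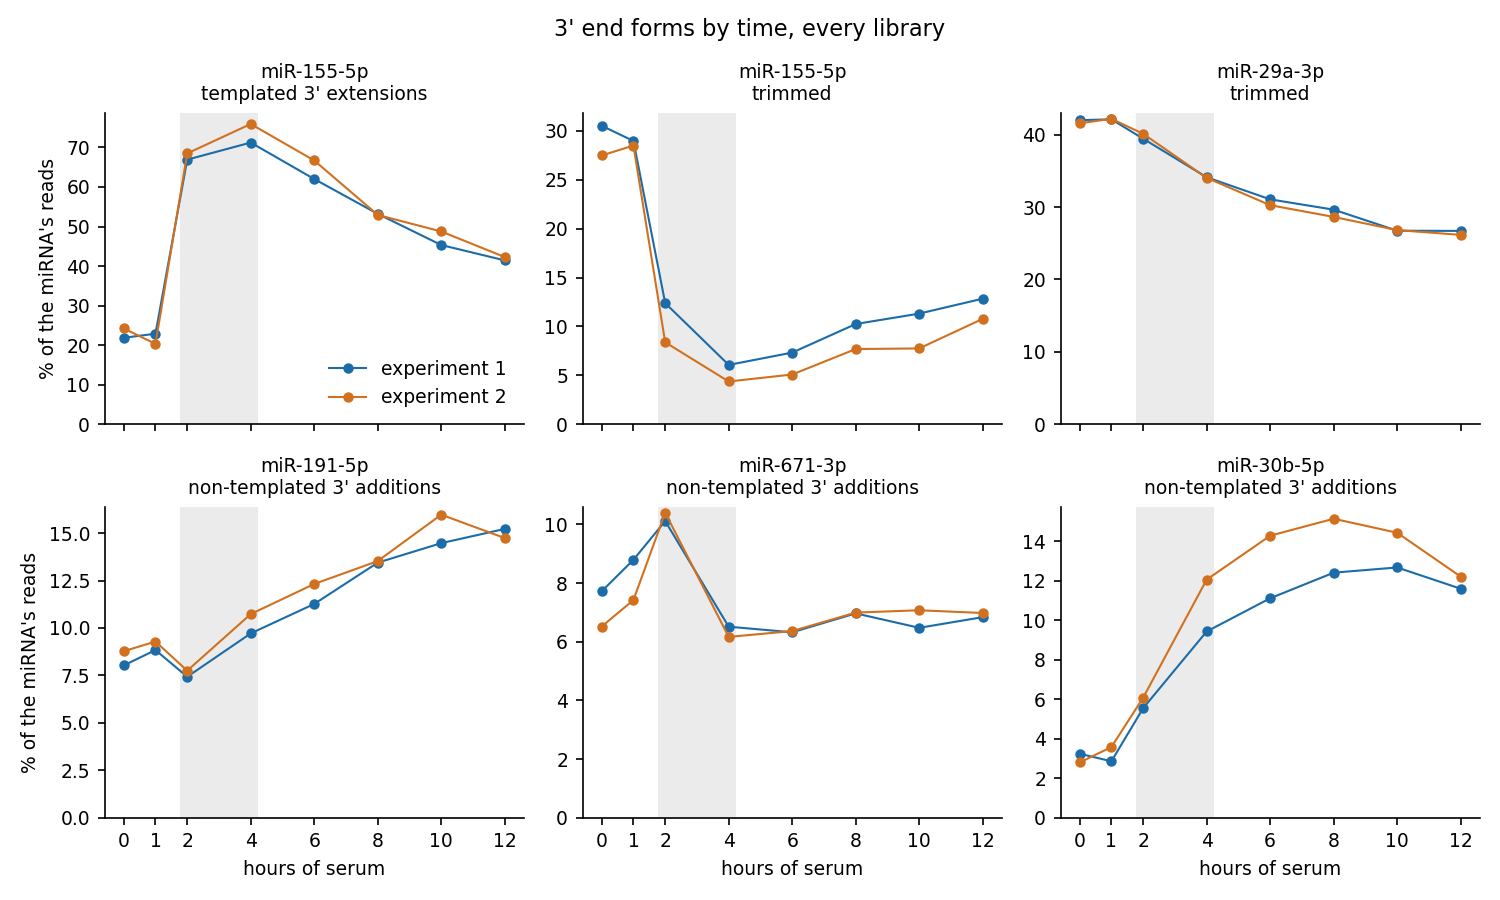
Share of a miRNA's reads in 1 class of 3′ end (y axis, %) over hours of serum (x axis) in every library, with 1 line for each experiment and the 2 to 4 h interval shaded. Between 2 and 4 h the experiments move in parallel in each panel: trimmed miR-29a-3p goes down in both, to 34.1% and 34.0% at 4 h, and additions go up in miR-191-5p and miR-30b-5p and down in miR-671-3p. Templated extensions of miR-155-5p are highest at 4 h, at 71.2% and 75.9%.

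Leaving out a library ended most of these calls. No addition call remained without the 4 h library of experiment 2 or the 2 h library of experiment 2, 1 remained without the 2 h library of experiment 1 and 2 without the 4 h library of experiment 1. The trimmed call of miR-29a-3p passed only without the 2 h library of experiment 1 (adjusted p = 0.0257, range 0.0257 to 0.126 over the libraries left out, limma). A fit on the 2 h and 4 h libraries alone also ended all 4 calls (adjusted p of 0.249 to 0.265 for the additions and 0.337 for miR-29a-3p, limma). All 4 called end forms kept their sign in every such fit.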

How the data were processed

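Small RNA libraries were made with the Illumina TruSeq kit from total RNA, per the labels' protocols. The authors deposited raw counts for each sequence class of each miRNA, with each library in a column of its own, per the file headers. Per the submitters' processing notes, CASAVA 1.8.0 was used. The aligner, miRBase release, build and rule for multiply matching reads were not given in the sources used here. The meaning of the classes was read from their names.

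For each of 1167 mature miRNAs, 8 classes were summed so that each read counted once. Entries for single added bases repeat 9.55% to 10.5% of the sum of all entries and were used only to describe additions. The main test was the edgeR quasi-likelihood F-test (edgeR 4.0.16, R 4.3.3) with TMM scaling (factors 1.01 to 1.04 in the 4 libraries), the filterByExpr filter (minimum count 10) and Benjamini-Hochberg adjustment at 0.05. All 16 libraries entered 1 fit with time as a factor, which kept 449 miRNAs and left out 718. The SE of a change was its size divided by the root of its F statistic. Arm ratios and 3′ end classes were tested with limma 3.58.1 on log2 ratios within a library, with 0.5 reads added. Within-experiment differences used 0.5 CPM added. Arms were paired by name, which left 318 hairpins under the filter on the minor arm, and in 26 of the 129 tested the guide is shared by several loci. DESeq2 1.42.0, limma-voom, other scalings and filters, fits on fewer libraries and a replicate block were alternatives. Each test was checked on simulated data.

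According to the series design text, replicates are independent experiments, and same-numbered libraries deviated together from their time means over miRNAs (r of 0.134 to 0.602 in all 28 pairs of times, 0.337 for 2 and 4 h), so the numbers pair the samples. Libraries of 1 time differed by far more than counting noise (chi-square per degree of freedom 139 at 4 h and 96.6 at 2 h), and none was a duplicate.

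Named miRNAs are those called, the 8 hairpins with the lowest p among those with a lower minor arm and higher major arm, the 6 lowest p in each direction without overlap, the 8 lowest p among those passing first at 4 h, the most abundant overall and per list, miR-155, and the leading end forms. Members and lists were chosen with earlier results of these data known, and partner arms, neighbours and family members were added after their values were seen. Of the 449 tested names 372 matched a RefSeq mature miRNA by name. RefSeq sequences may differ from the reference used for counting.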

Additional observations from a re-analysis of the deposited data

How the results depend on the processing

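With 2 libraries a time, leaving 1 out leaves a lone library that is assumed to vary like the other times. In those fits the same 449 miRNAs gave 0 to 1 calls, the 129 hairpins 0 to 1, additions 0 to 2, templated extensions 0 and trimmed reads 0 to 2. At 0 calls, without the 4 h library of experiment 2 and the 2 h library of experiment 2, 24 and 26 miRNAs had an unadjusted p under 0.05. Against 4 calls, library totals in place of TMM gave 2 (both miR-155 arms at an adjusted p of 0.0521), no low-count filter 9, the replicate block 10 and reference reads alone 2. DESeq2 size factors, the DESeq2 test, limma-voom, a minimum mean of 10 CPM and the 2 h and 4 h libraries alone gave 5, 5, 4, 3 and 6. With the replicate block, additions, templated extensions and trimmed reads had 7, 2 and 2 calls. A higher minimum mean of reads gave 2 trimmed calls, and the 2 h and 4 h libraries alone gave no addition call. The block ended no call. Of 753 single values in alternatives 670 kept direction and side of the threshold, 43 lost significance, 16 gained it and 24 changed sign. The cause of these shifts was not tested.

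The values that changed sign were not past the test. Over the 4 libraries left out in turn, log2 changes ranged from -0.088 to 0.13 for miR-16-5p, -0.36 to 0.053 for miR-21a-5p, -0.11 to 0.093 for miR-23b-3p, -0.15 to 0.061 for miR-26a-5p, -0.20 to 0.037 for miR-26b-5p, -0.37 to 0.37 for miR-29b-3p, -0.028 to 0.16 for miR-30d-5p, -0.53 to 0.23 for miR-322-5p, -0.55 to 0.035 for miR-467d-3p, -0.65 to 0.064 for miR-501-5p and -0.060 to 0.12 for miR-99b-5p. Library totals turned miR-23b-3p to 0.012, and reference reads alone turned it to 0.0038, miR-467d-5p to -0.048 and miR-501-5p to 0.083. A mean of 10 CPM turned miR-16-5p to -0.0062 and miR-99b-5p to -0.015, which was also -0.0088 unfiltered and -0.0045 with DESeq2. miR-155-3p rested on 81 to 216 reads, which sets its counting error.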
